A study of Mus musculus with 2 samples.

Results

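The genes described here encode the Polycomb complexes, the histone deacetylases and sirtuins, co-repressor scaffolds, histone demethylases of the Kdm1 and Kdm4 families, and the maintenance DNA methylation proteins Dnmt1 and Uhrf1. They were taken by symbol, and all 43 had a row of their own among the 13056 genes with an Entrez identifier in the expression table. Of these 43, 41 reached 1 FPKM in at least 1 library, as did 10645 genes in all, and the 2 that did not were Hdac9 and Hdac11. FPKM counts sequenced fragments by kilobase of transcript and corrects for library size.

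The T cells were CD4+ cells from wild-type mice of the C57BL/6 strain, 6 to 8 weeks old, kept for 48 h in T helper 17 (Th17) polarising culture. The WT-APC library came from T cells grown with wild-type antigen presenting cells (APCs). The OX40L-TG-APC library came from T cells grown with APCs carrying a transgene for OX40L, the ligand of the costimulatory receptor OX40. The strain, age and T cell genotype were the same in both, and the promoter that drives the transgene was not given in the sources used here. There was 1 library per condition, so no test between conditions could be made. Condition and library cannot be told apart, and every difference below is one between these 2 libraries.

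Polycomb repressive complex 2 (PRC2) methylates lysine 27 of histone H3 through Ezh1 or Ezh2, and Polycomb repressive complex 1 (PRC1) ubiquitylates histone H2A and compacts chromatin. Histone deacetylases and sirtuins remove acetyl groups from histones and other proteins. Class I deacetylases act mostly as parts of complexes built on scaffolds such as Ncor1, Sin3a and Rcor1. Dnmt1 copies DNA methylation onto the new strand at replication, and Uhrf1 brings it there. In CD4+ T cells these enzymes are known for holding the genes of other T helper lineages silent.

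The files do not settle how the libraries should be scaled against each other, so each ratio was set against 3 references. These were a ratio of 1, the median ratio of 7843 well-expressed genes, which was 1.09, and the ratio of the FPKM totals, which was 1.13. As references for the intervals, the ratio of 1 and the ratio of totals were added after seeing the data, and so were the calls against all 3. From the steps of low FPKM values, the WT-APC library was estimated to hold 26400000 fragments, and the other library 30200000. A member with at least 1 FPKM had between 144 and 22738 estimated fragments in a library. The 95% exact Clopper-Pearson intervals below cover counting error only and leave out the variation between cultures and animals.

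Few of the genes differed by 1.5-fold, and their median change lay above that of all genes. Jarid2, a PRC2 cofactor, was the only member past 1.5-fold in the upward direction, that is, 1 of 41, against 7.21% of all genes. No member was at least 1.5-fold lower, against 3.38% of all genes. A 2-fold difference was reached by no member in either direction, and by 2.26% and 1.32% of all genes. These folds are on the log2(FPKM + 1) scale, on which the median change of the 41 was 0.21 and that of all genes 0.11. With the FPKM totals set equal the medians were 0.040 and -0.049. On that scale Hdac5, a class IIa deacetylase gene, lay just short of 1.5-fold at 0.58.

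The promoters of 4 members are printed because they belong to the genes at the ends of the range: Jarid2 and Hdac5 with the highest ratios, Hdac4 as the class IIa partner that went the other way, and Bmi1 with the lowest ratio. Each is the RefSeq window of GRCm38.p6 from 250 bases before to 50 bases after the first listed start, written 5′ to 3′. The windows are chr13:44730524-44730823 on the plus strand for Jarid2, chr11:102230123-102230422 on the minus strand for Hdac5, chr1:92180292-92180591 on the minus strand for Hdac4 and chr2:18676768-18677067 on the plus strand for Bmi1. Capitals mark the GC box GGGCGG and the CCAAT box CCAAT on either strand.
Jarid2: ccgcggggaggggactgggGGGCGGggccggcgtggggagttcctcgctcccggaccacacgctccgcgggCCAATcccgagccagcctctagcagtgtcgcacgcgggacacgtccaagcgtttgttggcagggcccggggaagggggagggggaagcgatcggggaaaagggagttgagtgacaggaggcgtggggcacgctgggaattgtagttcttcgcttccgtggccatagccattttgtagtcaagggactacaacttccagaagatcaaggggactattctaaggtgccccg
Hdac5: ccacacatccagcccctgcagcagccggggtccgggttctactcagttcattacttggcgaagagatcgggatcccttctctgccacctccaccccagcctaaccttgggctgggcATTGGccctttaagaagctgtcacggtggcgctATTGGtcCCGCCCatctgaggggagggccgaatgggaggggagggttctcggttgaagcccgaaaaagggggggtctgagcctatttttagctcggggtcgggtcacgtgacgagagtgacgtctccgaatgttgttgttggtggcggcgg
Hdac4: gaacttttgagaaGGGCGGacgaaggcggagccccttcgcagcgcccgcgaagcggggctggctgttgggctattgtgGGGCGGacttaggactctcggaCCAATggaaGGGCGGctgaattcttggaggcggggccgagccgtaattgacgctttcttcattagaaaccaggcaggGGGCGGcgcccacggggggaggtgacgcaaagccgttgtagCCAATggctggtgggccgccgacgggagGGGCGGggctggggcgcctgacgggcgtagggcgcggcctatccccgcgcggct
Bmi1: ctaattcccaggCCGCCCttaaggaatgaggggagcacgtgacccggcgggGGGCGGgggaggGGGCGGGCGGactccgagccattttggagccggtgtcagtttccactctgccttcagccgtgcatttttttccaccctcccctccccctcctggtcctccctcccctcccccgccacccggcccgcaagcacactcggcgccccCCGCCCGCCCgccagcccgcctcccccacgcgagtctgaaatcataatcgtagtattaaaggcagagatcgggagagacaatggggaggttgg
The Jarid2 window holds 1 GC box and 1 CCAAT box, and 24 CpG dinucleotides. The Hdac5 window holds 1 GC box, 2 CCAAT boxes and 18 CpG. That of Hdac4 holds 5 GC boxes, 2 CCAAT boxes and 32 CpG, and that of Bmi1 6 GC boxes, some of them overlapping, no CCAAT box and 23 CpG. The Hdac4 window lies upstream of the locus that the table prints for the gene, which ends at 92148393. The Bmi1 window lies inside its printed locus, which starts further upstream.

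Over the 38 members with a window, the letters of the GC box occurred in 25 (65.8%), against 66.5% of 8587 windows of genes with at least 1 FPKM and 35.9% of all 27025 windows. CCAAT occurred in 21 (55.3%), against 40.0% and 37.9%. The E2F letters TTTCGCGC or TTTGGCGC occurred in 1 member, Ezh2, against 1.89% and 0.833%. The NRF1 motif (GCGC, 2 free bases, GCGC) occurred in 9 (23.7%), against 15.0% and 6.43%. TTCNNNGAA, the STAT motif, occurred in 3 members (Ncor1, Phc1 and Sirt7; 7.89%), against 7.02% and 8.47%. The kappaB consensus was found in Sirt2 alone (2.63%), against 5.04% and 4.35%, TGANTCA, the AP-1 motif, in Kdm4a alone (2.63%), against 4.51% and 7.93%, the cyclic AMP element TGACGTCA in Cbx8 alone (2.63%), against 3.60% and 1.88%, and the ETS letters CCGGAAGT in Sirt3 and Sirt6 (5.26%), against 9.64% and 4.00%. Both strands were read and overlaps were allowed. The median window of a member held 23 CpG, against 21 for genes with at least 1 FPKM and 7 for all windows.

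PRC2 held the member that differed most. Jarid2 (Entrez 16468, chromosome 13, 44730773 to 44921643 as the table prints it), which helps recruit PRC2 to chromatin and belongs to the jumonji family without being an active demethylase, stood at 19.3 FPKM with WT APCs and 36.8 FPKM with OX40L-TG APCs. The OX40L-TG-APC library was the higher one by a ratio of 1.91 (1.82 to 2.0). Only 298 of the 10645 genes (2.80%) had a larger change. No other annotated gene lies under its printed locus.

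The catalytic subunit gene of dividing cells, Ezh2, stood at 34.8 and 37.6 FPKM (WT-APC first, here and below), a ratio of 1.08 (1.02 to 1.14) that lay at the median of well-expressed genes. Its paralogue Ezh1, the catalytic subunit used more in resting cells, stood at 15.7 and 14.6 FPKM, with a ratio of 0.930 (0.870 to 0.995). Ezh1 was thus lower against all 3 references, as were 17.4% of all genes, though its interval came close to 1. Among the other core subunits, Eed, which binds the methyl mark, stood at 44.7 and 54.6 FPKM. Suz12, the scaffold of the complex, stood at 42.8 and 54.4 FPKM. The histone-binding subunit genes Rbbp4 (58.8 and 69.1 FPKM) and Rbbp7 (118 and 140 FPKM) are shared with deacetylase complexes. These 4 core genes had ratios of 1.18 to 1.27, with intervals above all 3 references, as had 24.9% of all genes. The printed loci of Suz12, Rbbp4 and Rbbp7 each overlap 1 other protein-coding gene.

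The remaining accessory genes among the members belong to the Polycomb-like family, whose proteins bring PRC2 to unmethylated CpG islands. Mtf2 stood at 23.2 and 23.3 FPKM, and its interval of 0.949 to 1.06 lay below the median and total references. Phf19 stood at 6.22 and 8.10 FPKM, with a ratio of 1.30 (1.17 to 1.45). Of the summed level of Jarid2, Mtf2 and Phf19, Jarid2 made up 39.6% in the WT-APC library and 54.0% in the OX40L-TG-APC library, and Mtf2 47.6% and 34.1%. Among these accessory members the leading transcript was therefore Mtf2 in the WT-APC library and Jarid2 in the other. Aebp2, another accessory PRC2 gene outside the members, was higher than both, at 174 and 183 FPKM. The 9 PRC2 members had a median change of 0.24 on the log2 scale. Of their intervals, 6 lay above the median ratio (31.8% of all genes), 2 below it (29.9% of all genes) and 1 across it.

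**Figure D1:**
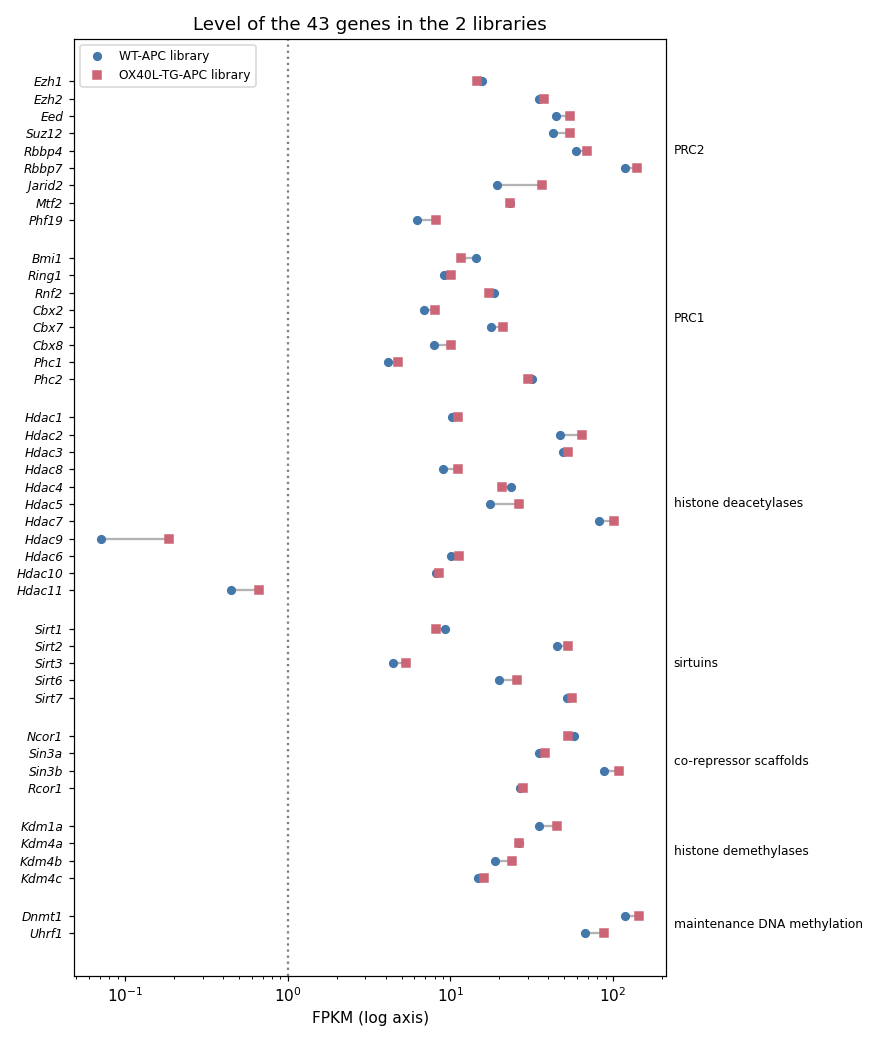
Levels of the 43 genes in FPKM on a log axis, with a circle for the WT-APC library and a square for the OX40L-TG-APC library, ordered by complex; the dotted line is 1 FPKM. Jarid2 moved from 19.3 to 36.8 FPKM, most other genes shifted little, and Hdac9 and Hdac11 lie under 1 FPKM in both libraries.

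PRC1 genes divided. Bmi1 (chromosome 2, 18664341 to 18686629), a RING-finger partner that activates the ubiquitin ligase, stood at 14.3 and 11.7 FPKM. Its ratio of 0.813 (0.751 to 0.880) was the lowest of all members, and 913 genes (8.58%) had a lower change. Its printed locus also covers the neighbouring gene Commd3. Phc2, a polyhomeotic protein that clusters PRC1, stood at 31.7 and 29.8 FPKM, with a ratio of 0.940 (0.895 to 0.988). Both intervals lay below all 3 references. The ligase gene Rnf2 stood at 18.5 and 17.3 FPKM with an interval of 0.873 to 1.01, which excluded the median and total references but not 1. The other ligase gene, Ring1, stood at 9.19 and 10.1 FPKM, and its interval of 0.964 to 1.24 held all 3 references; 4 other protein-coding genes lie in its printed locus.

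The Cbx proteins read the methyl mark laid down by PRC2. Cbx8 stood at 7.93 and 10.1 FPKM, with a ratio of 1.28 (1.16 to 1.41) above all 3 references. Its printed locus, 119038435 to 119040913, is shorter than the 3580 bases of transcript used to estimate its fragments. The Cbx8 interval may therefore be too narrow, and its place above the total reference is uncertain. Cbx7 stood at 17.7 and 21.0 FPKM, with an interval of 1.11 to 1.28 that excluded the median reference but not the total reference. Apobec3 overlaps its printed locus. For Cbx2, at 6.88 and 8.08 FPKM, the interval of 1.06 to 1.30 excluded a ratio of 1 alone. The 3 Cbx genes kept their proportions, with Cbx7 at 54.4% of their summed level in the WT-APC library and 53.6% in the OX40L-TG-APC library. Phc1 was the lowest in level of the PRC1 members, at 4.11 and 4.79 FPKM, with a ratio of 1.16 (1.02 to 1.33). Over the 8 PRC1 genes the median change was 0.15 as deposited and -0.0054 with the FPKM totals set equal. Of their intervals, 2 lay above the median ratio (31.8% of all genes), 3 below it (29.9% of all genes) and 3 across it.

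Class I deacetylases are the catalytic subunits of most nuclear co-repressor complexes. Hdac2 (chromosome 10, 36974543 to 37001888) stood at 47.1 and 64.2 FPKM, with a ratio of 1.37 (1.29 to 1.44), the highest of the class. Hdac3, the partner of Ncor1, stood at 49.0 and 53.1 FPKM, with a ratio of 1.08 (1.03 to 1.14) at the median of well-expressed genes. The pair lay close together in the WT-APC library, whereas Hdac2 was the higher one in the OX40L-TG-APC library. Hdac2 made up 40.8% and 46.0% of the class sum, and Hdac3 42.5% and 38.0%. Hdac1 was listed at 10.3 and 11.2 FPKM (ratio interval 0.962 to 1.22). A pseudogene of Hdac1 is annotated on another chromosome, so the Hdac1 level is uncertain where reads could belong to both. Hdac8, on the X chromosome, stood at 9.06 and 11.1 FPKM (interval 1.08 to 1.39).

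Class IIa deacetylases shuttle between cytoplasm and nucleus on signals from the T cell receptor. Their members went apart. Hdac5 (Entrez 15184, chromosome 11, 102195746 to 102230172) stood at 17.4 and 26.4 FPKM, with a ratio of 1.52 (1.43 to 1.61). That was the second highest ratio among the 41. Hdac4 stood at 23.6 and 20.9 FPKM, with a ratio of 0.884 (0.850 to 0.920) below all 3 references. Hdac4 was therefore the higher of this pair in the WT-APC library and Hdac5 in the OX40L-TG-APC library. The ratio of Hdac5 to Hdac4 was 0.737 in the first and 1.27 in the second, a 1.72-fold difference (1.60 to 1.85) that no scaling of the libraries can move. Each of the 2 printed loci overlaps 1 other annotated gene, which is not protein-coding. Hdac7, the main class IIa gene of thymocytes and T cells, made up 66.6% and 67.9% of the class, at 81.9 and 101 FPKM, with a ratio of 1.23 (1.19 to 1.26). Slc48a1 overlaps its printed locus.

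Hdac9 was nearly unmeasured, at 0.0708 and 0.186 FPKM from about 7 and 20 fragments, and its ratio of 2.63 had an interval of 1.01 to 6.99. Hdac11, the class IV gene, stood at 0.447 and 0.669 FPKM (interval of the ratio 0.935 to 2.47). The class IIb genes Hdac6, a cytoplasmic tubulin deacetylase on the X chromosome, and Hdac10, a polyamine deacetylase, stood at 10.1 and 11.3 FPKM and at 8.21 and 8.52 FPKM. Their intervals, 1.03 to 1.21 and 0.920 to 1.17, held the median reference. Of the 9 deacetylase genes with at least 1 FPKM, 3 intervals lay above the median ratio (Hdac2, Hdac5 and Hdac7), close to the 31.8% of all genes. There was 1 below it (Hdac4), against 29.9% of all genes, and 5 lay across it. Their median change was 0.15 as deposited and -0.016 with the FPKM totals set equal.

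Sirtuins use NAD to remove acyl groups. Sirt1, the nuclear sirtuin best known for deacetylating transcription factors, stood at 9.27 and 8.11 FPKM, with a ratio of 0.875 (0.797 to 0.961) below all 3 references. Sirt6, a chromatin sirtuin that restrains glycolytic genes, stood at 19.9 and 25.7 FPKM, with a ratio of 1.29 (1.18 to 1.41) above all 3. The locus printed for Sirt1 spans 4 other protein-coding genes and that for Sirt6 spans 1. The cytoplasmic Sirt2 (45.3 and 52.7 FPKM) had an interval of 1.10 to 1.24. The nucleolar Sirt7 (51.9 and 55.8 FPKM) had an interval of 1.02 to 1.14. The mitochondrial Sirt3 was low, at 4.43 and 5.36 FPKM, with an interval of 0.975 to 1.51 and 21 other protein-coding genes in its printed locus. The median change of the 5 was 0.22.

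**Figure D2:**
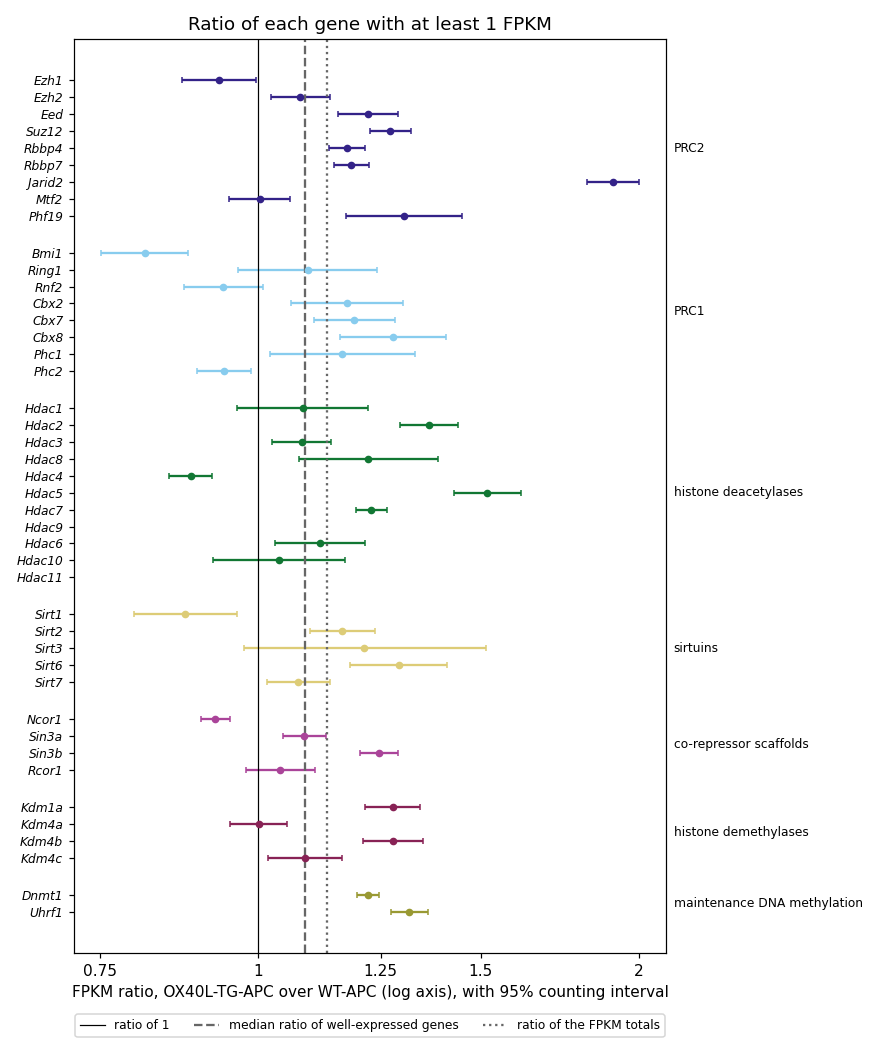
Ratio of FPKM, OX40L-TG-APC over WT-APC, on a log axis for each member with at least 1 FPKM in either library; points are ratios and bars 95% counting intervals, coloured by complex, with lines at a ratio of 1, at the median ratio of 1.09 and at the ratio of totals of 1.13. Jarid2 (1.91) and Hdac5 (1.52) stand to the right, and Bmi1 (0.813), Sirt1 (0.875) and Hdac4 (0.884) to the left.

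Co-repressor scaffolds carry deacetylases to DNA-bound factors. Sin3b, at 87.5 and 109 FPKM, was the highest of them in level, with a ratio of 1.25 (1.20 to 1.29) above all 3 references. Its paralogue Sin3a stood at 35.2 and 38.3 FPKM, at a ratio of 1.09 (1.05 to 1.13). Ncor1, which activates Hdac3, stood at 57.5 and 53.1 FPKM, with a ratio of 0.925 (0.900 to 0.949) below all 3; Ttc19 overlaps its printed locus. Rcor1, the CoREST scaffold that links Kdm1a to Hdac1 and Hdac2, stood at 26.9 and 28.0 FPKM (interval 0.977 to 1.11). Sin3a and Rcor1 lay below the reference from the totals but not below the median reference. Their median change was 0.09 as deposited, below that of all genes, -0.031 with the median ratio set to 1 and -0.087 with the totals set equal.

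Kdm1a (also called LSD1) removes methyl groups from lysine 4 of histone H3. It stood at 35.2 and 44.9 FPKM, with a ratio of 1.28 (1.21 to 1.34). The Kdm4 enzymes, which demethylate lysine 9 and lysine 36, differed among themselves. Kdm4b stood at 18.8 and 24.1 FPKM, with a ratio of 1.28 (1.21 to 1.35). Kdm4a stood at 26.5 and 26.6 FPKM (interval 0.949 to 1.05) and Kdm4c at 14.8 and 16.1 FPKM (interval 1.02 to 1.16). Kdm1a and Kdm4b lay above all 3 references, whereas Kdm4a lay below the median and total references. Luzp1 overlaps the printed locus of Kdm1a. The share of Kdm4b in the Kdm4 sum was 31.3% in the WT-APC library and 36.1% in the OX40L-TG-APC library.

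Dnmt1, at 119 and 145 FPKM, and Uhrf1 (chromosome 17, 56303336 to 56323486), at 67.0 and 88.2 FPKM, were among the highest members in level. Their ratios of 1.22 (1.20 to 1.25) and 1.32 (1.27 to 1.36) lay above all 3 references. Uhrf1 and Kdm4b are neighbours on chromosome 17, where the printed locus of Kdm4b begins at 56326049, and their ratios were alike at 1.32 and 1.28. Cbx2 and Cbx8 are likewise neighbours on chromosome 11. S1pr2 overlaps the printed locus of Dnmt1.

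Over the 41 genes, 18 intervals (43.9%) lay above the median ratio, against 31.8% of 10530 genes with a known transcript length. Below it lay 9 (22%), against 29.9%, and 14 held it. Above all 3 references were 16 genes (39.0%), against 24.9% of all genes. They include Cbx8, whose interval may be too narrow. Below all 3 were 6 genes (14.6%), against 17.4%, namely Ezh1, Bmi1, Phc2, Hdac4, Sirt1 and Ncor1. In FPKM as deposited 34 of the 41 genes were higher with OX40L-TG APCs, against 68.3% of all genes. With the totals set equal, 22 changes were positive and 19 negative. The genes were better expressed than most, with a median of 23.2 FPKM against 13.8 FPKM for all genes, and such genes have narrower intervals.

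Ratios between partners within a library do not depend on how the libraries were scaled. Jarid2 per Ezh2 went from 0.554 to 0.979, a 1.77-fold difference (1.64 to 1.90). Ezh2 per Ezh1 was 2.21 and 2.57 (1.16-fold, 1.06 to 1.27), Hdac2 per Hdac1 4.57 and 5.75 (1.26-fold, 1.11 to 1.44), and Phf19 per Mtf2 0.268 and 0.348 (1.30-fold, 1.15 to 1.47). In each of these pairs the gene named first gained on its partner. Kdm4b per Kdm4a was 0.709 and 0.906 (1.28-fold, 1.18 to 1.38). Sin3b per Sin3a was 2.49 and 2.85 (1.15-fold, 1.09 to 1.21). Going the other way were Rnf2 per Ring1, at 2.01 and 1.72 (0.856-fold, 0.741 to 0.992), and Phc2 per Phc1, at 7.70 and 6.22 (0.807-fold, 0.701 to 0.929). Rbbp7 per Rbbp4 stayed at 2.01 and 2.03 (1.01-fold, 0.963 to 1.06), the flattest of the pairs compared.

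**Figure D3:**
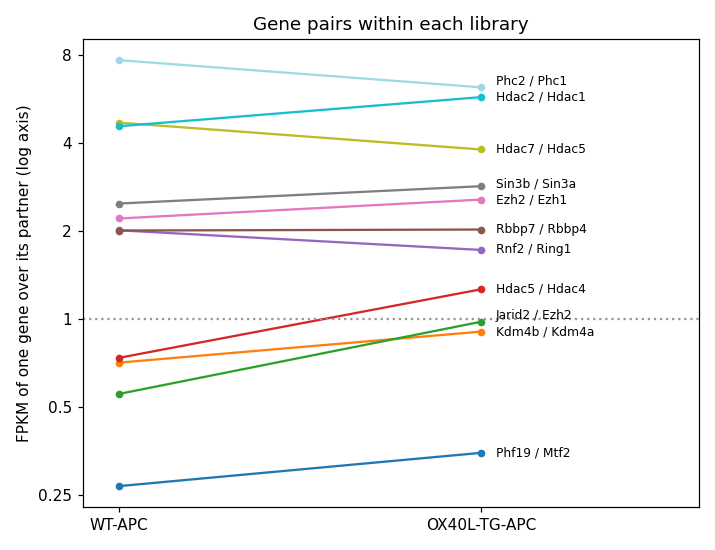
FPKM of one gene divided by that of its partner in the WT-APC library (left) and the OX40L-TG-APC library (right), on a log axis; each line is a pair and the dotted line marks equal levels. Hdac5 per Hdac4 crosses that line, from 0.737 to 1.27, and Jarid2 per Ezh2 comes close to it, from 0.554 to 0.979, while Rbbp7 per Rbbp4 is flat.

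Genes of the same complexes outside the 43 included larger differences. Among 18 further PRC1 and PR-DUB genes (median 0.09), 1 (5.56%) was at least 1.5-fold higher, against 7.21% of all genes. At least 1.5-fold lower were 2 of the 18, against 3.38% of all genes. Pcgf5, a RING-finger partner of variant PRC1 and thus a counterpart of Bmi1, stood at 16.2 and 39.3 FPKM, with a ratio of 2.43 (2.21 to 2.68). Rybp, another subunit of variant PRC1, stood at 2.54 and 1.31 FPKM, and Scml4, of the Scm family of Polycomb proteins, at 5.80 and 2.65 FPKM. Of 30 further genes of deacetylase complexes (median 0.08), none was at least 1.5-fold lower, against 3.38% of all genes. At least 1.5-fold higher were 2 (6.67%), close to the 7.21% of all genes. These were Sap30, a subunit of the Sin3 complex (21.5 and 45.3 FPKM, ratio 2.10, 1.91 to 2.33), and Rcor2, a paralogue of Rcor1 (1.45 and 5.86 FPKM, ratio 4.05, 3.26 to 5.07). Among 15 further histone demethylase genes with at least 1 FPKM (median 0.01), Kdm1b, the paralogue of Kdm1a, was higher (7.45 and 12.1 FPKM) and Kdm7a, which acts on lysine 9 and lysine 27, lower (12.2 and 7.30 FPKM). The printed loci of Pcgf5, Rybp, Scml4, Kdm1b and Kdm7a each overlap 1 other annotated gene.

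Further PRC2 genes numbered 4, with a median of -0.10 and none at 1.5-fold on the log2(FPKM + 1) scale. For Epop (12.9 and 19.4 FPKM) the ratio without the pseudocount lay just past 1.5-fold, with an interval of 1.37 to 1.65. Further DNA methylation genes with at least 1 FPKM numbered 8, with a median of 0.14 and none at 1.5-fold on that scale. Tet1 (0.205 and 0.913 FPKM) lay under 1 FPKM and was not among the 8. Its change of 0.67 on that scale was past 1.5-fold upward, and no counting interval was made for it. The 23 listed genes of Trithorax complexes and histone acetyltransferases had a median of -0.06 and none at 1.5-fold on the log2(FPKM + 1) scale. Without the pseudocount, Setd1b (2.30 and 1.25 FPKM) had a ratio of 0.547 (0.475 to 0.629). Of the 23 intervals, 15 lay below the median ratio (29.9% of all genes) and 4 above it (31.8% of all genes). Classical Polycomb target genes gave little signal. Of 14 listed, 12 had no row and are not analysed here, and Cdkn2a (0.0998 and 0.0872 FPKM) and Hoxb4 (0.371 and 0.414 FPKM) lay under 1 FPKM. Of 7 T helper genes known to be bound by Ezh2, 3 lay under 1 FPKM (Eomes, Il4 and Il13). Tbx21, the Th1 factor gene, stood at 4.70 and 7.26 FPKM, Gata3, the Th2 factor gene, at 3.32 and 4.14 FPKM, Ifng at 1.46 and 1.78 FPKM, and Il10 at 36.7 and 16.3 FPKM.

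Other RNA moved in the same libraries. All 18 proliferation genes passed 1 FPKM, with a median change of 0.30 and none at 1.5-fold. Of their intervals, 15 lay above the median ratio (31.8% of all genes) and 3 below it (29.9% of all genes). Dnmt1 and Uhrf1 (median 0.34), like Ezh2 and the other PRC2 core genes apart from Ezh1, are also known to be expressed with DNA replication. The part of proliferation in their values was not tested. B cell markers were lower with OX40L-TG APCs, 7 of 7 with at least 1 FPKM by at least 1.5-fold, with a summed level of 50.8 and 21.5 FPKM. Their lowest changes were those of Blnk (7.02 and 2.32 FPKM) and Cd79a (6.52 and 2.20 FPKM). Myeloid markers summed to 11.2 and 5.36 FPKM over 4 of 8 genes, of which Lyz2 (4.55 and 1.01 FPKM) and Tyrobp (2.87 and 0.827 FPKM) were at least 1.5-fold lower. Flt3 (3.46 and 1.09 FPKM) was the only one of 5 dendritic cell markers over 1 FPKM, and Clec9a was listed at 0 with OX40L-TG APCs. CD8 T and natural killer markers summed to 7.02 and 6.33 FPKM over 2 of 4 genes. The 12 T cell markers summed to 2394 and 2659 FPKM, all of them over 1 FPKM, with a median change of 0.10. Of these, Thy1 (91.6 and 174 FPKM) and Cd2 (248 and 407 FPKM) were at least 1.5-fold higher and Cd28 (217 and 142 FPKM) at least 1.5-fold lower. The intervals of the 12 lay above the median ratio for 3 genes (31.8% of all genes), below it for 6 (29.9% of all genes) and across it for 3. The Th17 genes were present, with 5 of 6 at least 1.5-fold lower with OX40L-TG APCs, led by Il17a (315 and 24.7 FPKM), Il17f (1764 and 450 FPKM) and Il23r (31.4 and 14.9 FPKM). Fewer cells of a type and less RNA per cell cannot be told apart in such libraries, and the part of the other cells in the members' values was not tested.

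**Figure D4:**
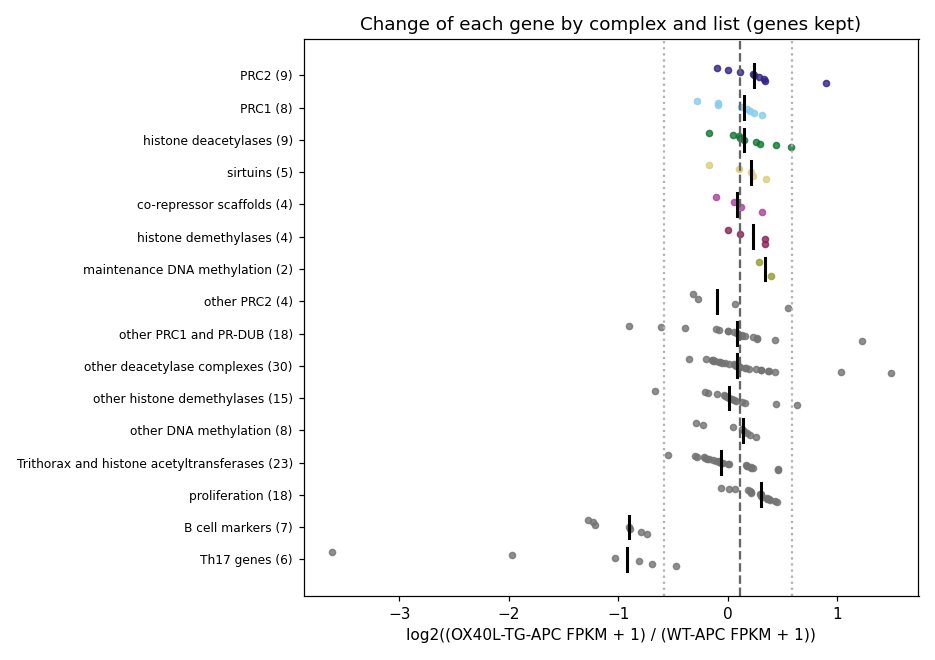
Change of each gene with at least 1 FPKM, on the log2(FPKM + 1) scale with OX40L-TG APCs minus WT APCs, for the complexes described here (coloured) and for other lists (grey), with the number of genes in parentheses; black bars are medians, the dashed line is the median of all genes and the dotted lines are 1.5-fold. The coloured medians lie between 0.09 and 0.34, whereas B cell markers (median -0.90) and Th17 genes (median -0.92) lie to the left.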

How the data were processed

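RNA from 1 T cell culture per condition was sequenced; per the labels' protocols, libraries were made with an Illumina TruSeq kit. The authors deposited FPKM values; TopHat2, Cuffdiff and mm9 are named per the submitters' processing notes. The sources used here give no versions, gene models or strand handling. Printed loci follow GRCm38 coordinates, with starts 1 base before the RefSeq gene for 16 of the 43 members, and are given as printed. Values with 7 digits ended in 5 in 98.9% (WT-APC) and 99.9% (OX40L-TG-APC) of cases, as means of 2 printed values would. The authors' deposited comparison table, with log2 ratios and p-values per the file headers, lists 398 genes, each with an absolute log2 ratio of at least 1.00; it holds none of the 43 members.

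Symbols came from the RefSeq table of GRCm38.p6 (13030 of 13056 identifiers matched). Change was log2 with a pseudocount of 1 FPKM, which shrinks the change of low genes, for genes of at least 1 FPKM in either library. Members were named in full; genes outside them were named from the lists when at least 1.5-fold changed, at most the 3 highest and 3 lowest of each. Outside this rule, Tbx21, Gata3, Ifng, Eomes, Il4, Il13, Cdkn2a, Hoxb4, Clec9a, Aebp2, Epop, Setd1b and Tet1 were named after their values were seen. The members, lists and the 1.5-fold threshold were chosen with earlier results of these data known. Depth was estimated from 347 single-transcript genes under 0.3 FPKM and at least 1500 bases long, after taking 180 bases from each transcript: 66.6% and 67.4% of their values then lay within 0.1 of a whole fragment number. The procedure was tested on simulated data. Well-expressed genes had at least 5 FPKM in both libraries. Python 3.11.15, scipy 1.17.1 and pandas 2.3.3 were used.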

Additional observations from a re-analysis of the deposited data

How the results depend on the processing

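No paired analysis was possible because each condition had 1 library, and for the same reason no library could be left out. The count of members at least 1.5-fold higher, 1 in the report, became 2 with a pseudocount of 0.1 FPKM and, in a setting chosen after seeing the data, 2 with the factors of the authors' comparison table, both times by adding Hdac5; at 2-fold it was 0. It stayed at 1, and the count of lower members at 0, with a pseudocount of 5 FPKM, without the filter, with a minimum of 5 FPKM, with the median ratio set to 1, with equal totals and without the 25 members whose printed locus holds another gene. The median change of the members, 0.21, was 0.040 with equal totals and between 0.10 and 0.23 in the other settings. With 2 references added after seeing the data, 27 intervals lay above and 6 below a ratio of 1 (49.0% and 17.4% of all genes). Against the ratio of totals, 16 lay above and 11 below (24.9% and 38.0% of all genes). For the median ratio the counts were 18 and 9 (31.8% and 29.9% of all genes). Among 303 values of single members under other settings, 65 moved by more than their counting error. The 303 include settings that change only which genes are kept, and these cannot move a single value. Most of the moves came with the median ratio set to 1 or with equal totals. Members with a positive change numbered 34 as deposited, 25 with the median ratio set to 1 and 22 with equal totals, so many small changes depend on the scaling for their direction. Depth limits Hdac9 and Hdac11 most.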
